A study of Homo sapiens with 3 samples.

Results

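The array of MDA-MB-231 cells given tamoxifen was compared with the array of the same line given vehicle, across every probe set that carries exactly 1 gene symbol. These were 41097 of the 54675 probe sets on the array, and they named 19775 genes. The comparison used 2 of the series' 3 arrays, each hybridised to RNA from 1 culture sample. Neither side was replicated, so the results are sizes, with no test and no error from replicates.

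MDA-MB-231 is a human breast cancer line of the basal type that lacks estrogen receptor alpha. Cells were held for 4 h in medium with 10% charcoal-stripped serum, which is depleted of steroids. The vehicle group then received 0.1% ethanol for 3 h. The tamoxifen group received 1 µM tamoxifen for 3 h, and the third group, shown here only beside the others, received 1 µM estradiol for 3 h. All groups share the line, the serum and the preincubation, and the labels name no solvent for the ligand groups. Total RNA was labelled with biotin and hybridised to the Affymetrix array that the labels call HGU133A plus 2, on which a probe set is a group of short probes designed to read 1 transcript. In RNA from whole cultures, a change in RNA per cell cannot be told apart from a change in which cells are present.

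Tamoxifen is a selective estrogen receptor modulator: it competes with estradiol for the ligand pocket of the receptor and changes which cofactors the receptor recruits. It also binds proteins other than the receptor, among them the sterol isomerase EBP and the sterol reductase DHCR7, which together form the microsomal antiestrogen binding site, and it inhibits calmodulin and protein kinase C. In a cell without estrogen receptor alpha, the comparison asks which transcripts differ early after the drug by routes that do not need that receptor.

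The deposited values are log2 levels from which a baseline was subtracted for each probe set, so a value near 0 lies near that baseline and the level itself is no longer in the table. The vehicle column was narrower than the others: its SD over all probe sets was 0.201, against 0.471 for estradiol and 0.456 for tamoxifen. The reason for the narrower column was not tested. Each difference is therefore given as deposited and again with the vehicle value doubled, and a gene counts as higher or lower in both settings where it differed at least 1.5-fold in the same direction under each. A brightness band was read from the numerical step in which each value was stored. For this reading the vehicle values were taken as divided by 2 before storage, which was assumed and not tested. The floor was the band from 4 to 8 on the log2 scale, and 12070 genes had a probe set in that band or above it. The other 7705 named genes had none and are not counted below.

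Above the floor, 489 genes (4.05% of 12070) were higher with tamoxifen in both settings and 276 (2.29%) were lower. As deposited, 841 genes (6.97%) were at least 1.5-fold higher and 523 (4.33%) lower. With vehicle doubled, the counts were 862 higher (7.14%) and 440 lower (3.65%). Centring the differences on the median of 21 reference genes moved the deposited split to 1022 higher and 403 lower, so that 71.7% of the differences past 1.5-fold pointed up, against 61.7% as deposited. The median difference over all genes was 0.018 as deposited and 0.063 with vehicle doubled. At 2-fold in both settings, 58 genes were higher and 34 lower.

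Control probe sets and markers moved as follows, and their part in the results was not tested. The 24 probe sets for polyadenylated bacterial RNAs, which are spiked into samples before labelling, had a median difference of 0.87 as deposited and 0.39 with vehicle doubled. The 18 hybridisation controls had a median of 0.10. Each probe set is centred on its own baseline, so 5′ minus 3′ values can be compared between arrays but do not rank the ends within 1 array. For the ACTB control probe sets, 5′ minus 3′ was -0.67 on the tamoxifen array and 0.23 on vehicle. For GAPDH it was -0.071 on tamoxifen and 0.089 on vehicle. The 3 probe sets for 18S ribosomal RNA were higher by 0.24 to 0.59. Of the basal and MDA-MB-231 markers, 19 of 23 were above the floor, VIM, CD44, CAV1 and AXL among them, and none passed 1.5-fold in both settings. Of the luminal markers 12 of 18 were above the floor, but PGR, FOXA1, TFF1, TFF3, CDH1 and ERBB3 were not. Only 3 of 14 leukocyte markers and 4 of 14 fibroblast and endothelial markers were above it, and of these the actin-bundling gene LCP1 was lower (-0.98).

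**Figure D1:**
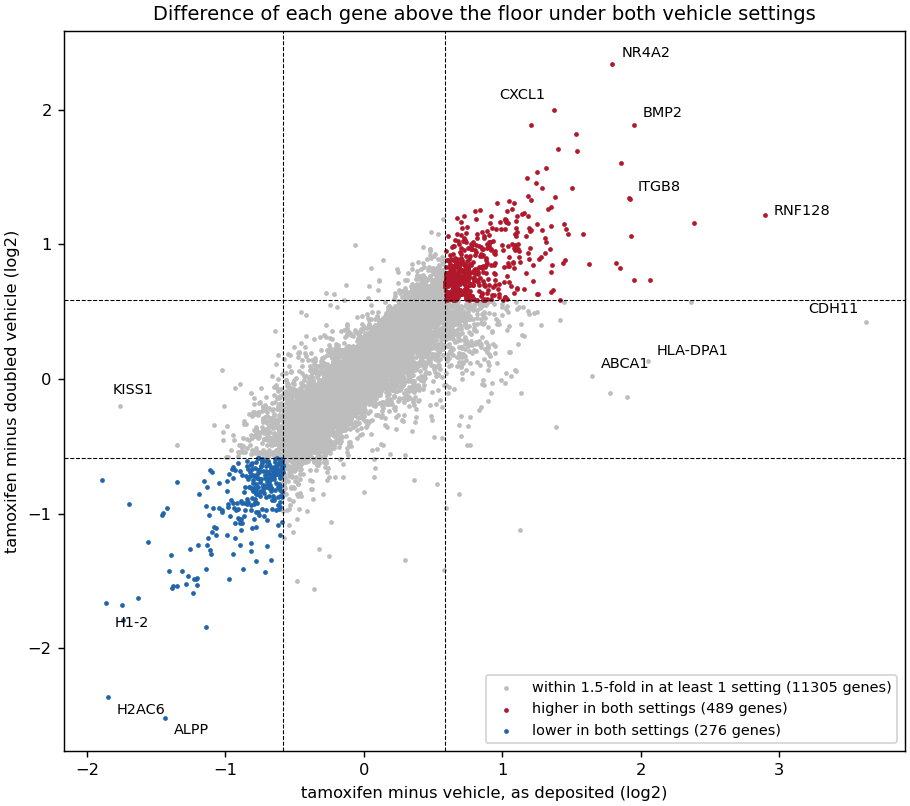
Each point is 1 of 12070 genes above the floor, with tamoxifen minus vehicle as deposited on the x axis and tamoxifen minus doubled vehicle on the y axis, both log2; dashed lines mark 1.5-fold. The 489 genes in the upper right corner and the 276 in the lower left passed the size rule in both settings, while CDH11, HLA-DPA1, ABCA1 and KISS1 were far from 0 only as deposited.

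Genes are ranked here by the smaller of their differences as deposited and with vehicle doubled. By this rank the gene furthest above vehicle was BMP2, a secreted ligand of the bone morphogenetic protein family. Its value was 0.059 on vehicle, 1.49 on estradiol and 2.01 on tamoxifen. The tamoxifen difference of 1.95 (3.86-fold) was 1.89 with vehicle doubled. A second BMP2 probe set, in the band below the floor, differed by 1.88. NR4A2, an orphan nuclear receptor induced rapidly by many stimuli, read -0.55, 0.50 and 1.25 on vehicle, estradiol and tamoxifen. It differed by 1.79 as deposited and 2.34 with vehicle doubled. The vehicle array was the lowest and the tamoxifen array the highest for both genes, and the other NR4A2 probe sets, which lie below the floor, differed by 1.42 and 1.48.

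SHISA2, whose protein holds Wnt and FGF receptors back in the endoplasmic reticulum, was at 0.25 on vehicle and 2.11 on tamoxifen, and it was also among the 20 genes furthest above vehicle. ARRDC3, an arrestin-domain adaptor that sends surface receptors for degradation, went from -0.16 to 1.38. ITGB8, the integrin beta 8 subunit, was at 0.58 and 2.51. Here the doubled vehicle value reduced the difference from 1.93 to 1.34. The ErbB ligand gene EREG (epiregulin) likewise gave 1.91 as deposited and 1.35 with vehicle doubled. ADGRL2, an adhesion receptor of the latrophilin type, stood at 0.031 on vehicle and 1.41 on tamoxifen and hardly depended on the setting, because its vehicle value was near 0. The same held for the bicarbonate transporter gene SLC4A4 (1.33 and 1.26), the cap-binding protein gene EIF4E3 (1.35 and 1.28) and the nuclear receptor coactivator gene PNRC1 (1.51 and 1.42). With all probe sets averaged, dim ones included, SLC4A4 differed by 0.41, EIF4E3 by 0.61, ITGB8 by 0.66, ADGRL2 by 0.80 and EREG by 1.10.

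TRPS1, a GATA-type zinc finger repressor, differed by 1.25, and the homeobox gene MNX1 by 1.32. UBR3 and RNF128 encode ubiquitin ligases: UBR3 differed by 1.28, the mean of 2 probe sets (0.51 with dim ones included), and RNF128 by 2.89. RNF128 had the widest gap between settings of the 20, since its vehicle value was 1.68 and the difference with vehicle doubled was 1.22. CHORDC1, a cochaperone of HSP90, was at -0.21 on vehicle, 0.0010 on estradiol and 1.03 on tamoxifen. Its tamoxifen difference was 1.24. GEM, a small GTPase that inhibits calcium channels, differed by 1.40, and HHIP, which binds and restrains hedgehog ligands, by 1.21.

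The lower end was led by histone genes: 7 of the 20 genes furthest below vehicle encode histones (H2AC6, H1-2, H2BC9, H2BC12L, H2BC6, H1-10 and H2BC4). The others were of mixed kinds. ARG2, the mitochondrial arginase, was at 0.054 on vehicle, -0.54 on estradiol and -1.69 on tamoxifen, a difference of -1.74 (3.34-fold lower). ALPP, placental alkaline phosphatase, was at 1.08 on vehicle, 1.71 on estradiol and -0.36 on tamoxifen. Tamoxifen was thus the lowest of the 3 arrays for both genes, while estradiol was the highest for ALPP as deposited. SOD2, the mitochondrial superoxide dismutase, differed by -1.28, read by 1 probe set. ITGBL1, an integrin beta-like secreted protein, differed by -1.25, and the zinc finger gene ZNF800 by -1.31. Each rests on 1 probe set above the floor. Averaged over all their probe sets, dim ones included, ITGBL1 differed by -0.32 and ZNF800 by -0.18. C6orf141, EBLN2, KIAA1755, SLC33A2, GTF2H2B, LINC02256 and KCNJ5-AS1 completed the 20, with differences from -1.21 (GTF2H2B) to -1.87 (C6orf141). Over all their probe sets KIAA1755 differed by -0.37 and C6orf141 by -1.15. RPLP2, a stalk protein of the large ribosomal subunit, differed by -1.63. It stood apart from the other 51 ribosomal protein genes above the floor, of which none passed 1.5-fold in both settings, and a second RPLP2 probe set below the floor differed by -0.14.

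**Figure D2:**
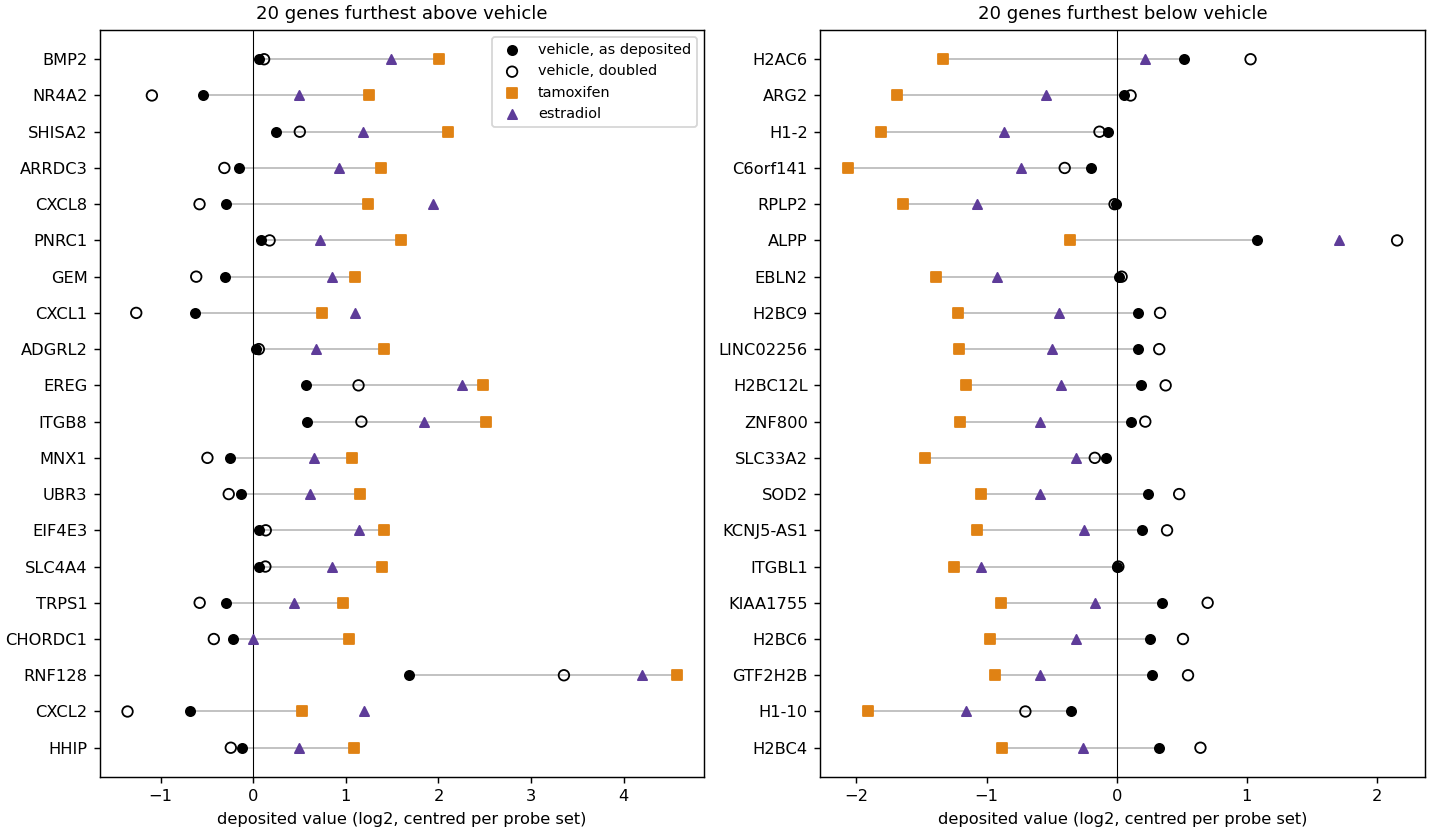
Deposited log2 values on each array for the 20 genes furthest above vehicle (left) and the 20 furthest below (right), ordered by the smaller of their 2 differences; filled circles are vehicle, open circles vehicle doubled, squares tamoxifen and triangles estradiol. Every square lies beyond both vehicle positions; for CXCL8, CXCL1 and CXCL2 the estradiol array was higher than the tamoxifen array.

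Probe sets of 1 gene offer a check within these arrays, though not a replicate of the culture. Of 5367 genes with 2 or more probe sets above the floor, 35 had every probe set higher in both settings and 21 had every one lower. LIFR, the receptor for leukemia inhibitory factor, was higher by 0.95 to 1.32 over 4 probe sets. With 3 probe sets each, the ER mannosidase gene EDEM3 was higher by 0.78 to 1.19, the NF-kB signalling protease gene MALT1 by 0.91 to 1.01, CDK8, the kinase of the Mediator complex, by 0.70 to 0.71, and the ectonucleotidase gene ENPP1 by 0.70 to 0.90. Among genes with every probe set lower, IL7R, the interleukin 7 receptor, differed by -1.34 and -1.05. AURKB, a mitotic kinase, differed by -1.17 and -0.64, and the adaptor gene SHC1 by -0.70 and -0.60.

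Agreement was partial over the wider set. Of 169 genes that were higher in both settings and had several probe sets above the floor, 148 (87.6%) had all of them above vehicle. Of 88 that were lower, 71 (80.7%) had all of them below. Over all 5367 such genes, 57.1% had every probe set on the same side of 0. The called genes were picked by the mean of their brightest probe sets, so their agreement in sign is partly fixed by that selection. It cannot be weighed against the 57.1%. Averaging all probe sets of a gene, dim ones included, left 265 of the 489 higher genes and 171 of the 276 lower genes past the rule in both settings. Across genes, the differences of 2 probe sets of the same gene correlated with r = 0.54 in the band of 8 and above (1058 genes), 0.44 in the band from 4 to 8 (3404 genes), 0.17 from 2 to 4 and 0.064 below 2. Such pairs share the arrays and the labelling, and genes are not independent replicates.

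Histone genes had the lowest median of the 43 gene lists with at least 5 members above the floor. Histones package DNA: core histones H2A, H2B, H3 and H4 form the nucleosome, and linker histone H1 binds where DNA enters and leaves it. Most core and linker genes lie in clusters on chromosome 6 and are transcribed in S phase into mRNAs that end in a stem-loop without a poly(A) tail, while variants such as H2AZ1 are made throughout the cycle. Of 22 histone genes above the floor, 11 were lower in both settings, against 2.29% of all genes, and none was higher. The list median was -0.60 as deposited and -0.63 with vehicle doubled, against 0.018 and 0.063 over all genes. The sign was the same under all 8 alternative ways of processing, with medians from -0.85 to -0.17. The value nearest 0, -0.17, came without the probe set types that can cross-react.

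Among linker histones, H1-2 was at -0.066 on vehicle, -0.87 on estradiol and -1.81 on tamoxifen, and H1-10 at -0.35, -1.15 and -1.91. In both the 3 arrays kept the order vehicle, estradiol, tamoxifen from high to low. H1-4, encoded in the same cluster as H1-2, was at -0.030 on vehicle and 0.011 on tamoxifen, with estradiol at -0.69. Among clustered core histones, 8 of 14 were lower in both settings. H2AC6 had the largest difference, from 0.51 on vehicle and 0.22 on estradiol to -1.34 on tamoxifen (-1.85, or 3.61-fold lower). The H2B genes H2BC4, H2BC5, H2BC6, H2BC9, H2BC12 and H2BC21 differed by -0.85 (H2BC12) to -1.39 (H2BC9), and the H4 gene H4C8 by -0.94. The other 6 clustered genes did not pass the rule: H2AC17 differed by -0.33, H4C5 by -0.084, H2BC3 differed by 0.043, H2AC4 by 0.20, H3C2 by 0.18 and H4C11 by 0.42. Of 5 variants outside the clusters, H2AX, the variant phosphorylated at DNA breaks, was lower (-0.88), while H2AZ1 and H2AZ2 were each higher by 0.13, well within 1.5-fold.

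Histone copies are nearly identical in sequence, and the array marks probe sets that may read several of them. Only H1-2, H2BC4, H2BC12 and H4C8 of the 11 lower genes were read by a probe set of the gene-specific type, and the other 7 rest on types that can cross-react. Of the 11 histone genes within the rule, 8 had a gene-specific probe set. The lower H2B values therefore cannot be counted as separate measurements. Genes of the G1/S and G2/M phases are given beside the histones, and a link between them was not tested. Of 46 G1/S genes above the floor, POLA1 (DNA polymerase alpha, 0.91) passed upward (2.17%, against 4.05% of all genes) and none downward. As deposited, 3 of the 46 were lower and 2 higher, where the shares over all genes were 4.33% and 6.97%. With vehicle doubled, none was lower and 3 were higher. The list median was -0.061 as deposited and 0.19 with vehicle doubled. Of 32 G2/M genes, AURKB was lower (-0.90), which is 3.1% against 2.29% of all genes, and none was higher.

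The stretches of 250 bases before the start sites of 3 histone genes are shown because H2AC6 and H1-2 were lower and H1-4 was not. They are RefSeq sequences of build GRCh38.p14, read 5′ to 3′ along the gene's strand, and capitals mark CCAAT and TATAAA on either strand.

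H2AC6, chr6:26123922-26124171, plus strand: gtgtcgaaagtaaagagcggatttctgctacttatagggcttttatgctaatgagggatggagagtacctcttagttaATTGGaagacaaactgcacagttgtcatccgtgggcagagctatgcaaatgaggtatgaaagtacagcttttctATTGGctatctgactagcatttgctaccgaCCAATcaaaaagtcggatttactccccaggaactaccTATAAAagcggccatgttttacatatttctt

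H1-2, chr6:26056471-26056720, minus strand: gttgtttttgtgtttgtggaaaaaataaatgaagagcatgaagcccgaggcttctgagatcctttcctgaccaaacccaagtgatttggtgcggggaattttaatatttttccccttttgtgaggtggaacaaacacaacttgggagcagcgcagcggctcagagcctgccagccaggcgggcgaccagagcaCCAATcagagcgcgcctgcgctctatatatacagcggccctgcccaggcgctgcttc

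H1-4, chr6:26156079-26156328, plus strand: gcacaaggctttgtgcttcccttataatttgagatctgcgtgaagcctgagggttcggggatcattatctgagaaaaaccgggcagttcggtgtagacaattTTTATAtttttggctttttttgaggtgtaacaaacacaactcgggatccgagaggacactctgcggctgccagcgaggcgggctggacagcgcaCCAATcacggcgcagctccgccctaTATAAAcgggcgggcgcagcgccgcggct

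H2AC6 and its neighbour H2BC4 are transcribed away from each other from starts 246 bases apart. The window of H2BC4 on the minus strand, chr6:26123927-26124176, shares 245 of its 250 bases with that of H2AC6, and both genes were lower. CCAAT occurred in 9 of the 11 lower histone genes and in 8 of the 11 within the rule. TATAAA occurred in 8 and 7 of them. Over all 9850 genes above the floor with a promoter in the table, 35.1% held CCAAT and 5.72% held TATAAA. Both motifs were searched on both strands. They were thus frequent in histone windows whether or not the gene was lower, and of the linker pair above, both windows hold CCAAT, while TATAAA is in that of H1-4 and not in that of H1-2.

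**Figure D3:**
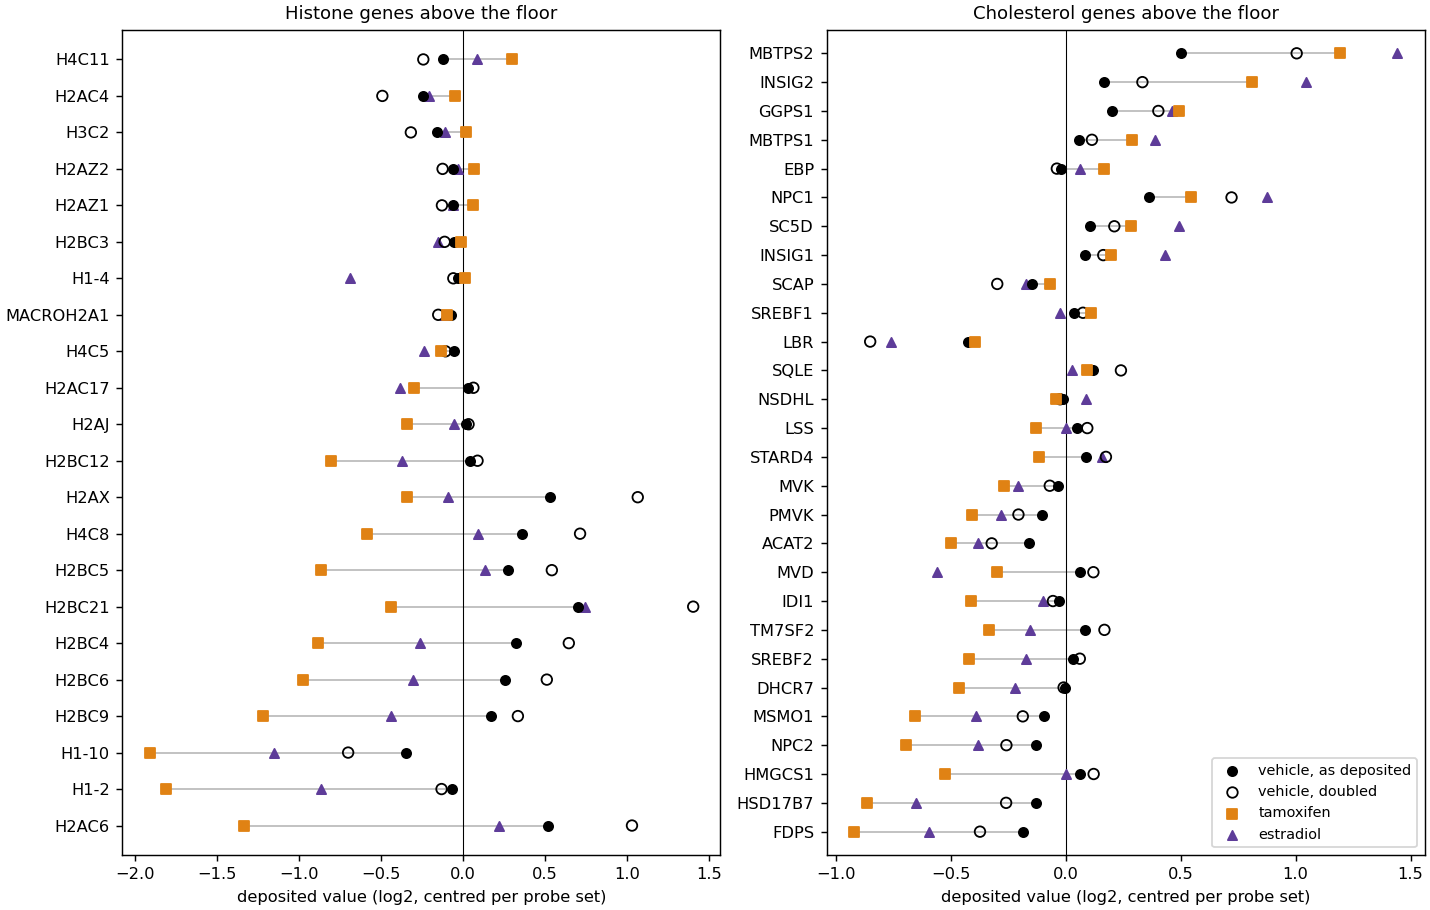
Deposited log2 values on each array for the 22 histone genes (left) and 28 cholesterol genes (right) above the floor, ordered by tamoxifen minus vehicle; symbols are filled circles for vehicle, open circles for vehicle doubled, squares for tamoxifen and triangles for estradiol. The 11 lower histone genes have squares left of both vehicle positions, and H1-4 shows estradiol but not tamoxifen below vehicle.

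Cholesterol genes were examined because EBP and DHCR7 bind tamoxifen. Cells make cholesterol from acetyl units through mevalonate and then a series of sterol steps, and SREBP2 (SREBF2) drives the genes of this path when membrane sterol is low. Of 28 genes above the floor, HMGCS1 and HSD17B7 were lower in both settings (7.14%, against 2.29% of all genes) and none was higher. The list median was -0.19 in each setting, and it was 0.0020 when probe set types that can cross-react were left out.

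Most mevalonate genes lay below vehicle by less than the rule. HMGCS1, which makes the precursor of mevalonate, was at 0.060 on vehicle, 0.0015 on estradiol and -0.53 on tamoxifen (-0.59, and -0.58 without cross-reacting types, just short of the rule). FDPS, which makes farnesyl diphosphate, was at -0.19, -0.60 and -0.92. Its difference was -0.74 as deposited and -0.55 with vehicle doubled, just short of 1.5-fold. HSD17B7, a sterol ketoreductase, differed by -0.73, read by 1 probe set of a type that can cross-react. MSMO1, a sterol methyl oxidase, differed by -0.56. Of the proteins that bind tamoxifen, EBP differed by 0.19 over 3 probe sets, DHCR7 by -0.46 and the sterol-binding sigma-2 receptor TMEM97 by -0.16. The regulators went both ways: SREBF2 differed by -0.45, while INSIG2, which retains SREBPs in the endoplasmic reticulum, differed by 0.64 and the SREBP protease gene MBTPS2 by 0.69. Both upward values fell under 1.5-fold with vehicle doubled.

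Among LXR targets, which export sterol, APOE was lower on its brightest probe set (0.11 on vehicle, -0.57 on tamoxifen). Other APOE probe sets above the floor differed by -0.29 and -0.061, and the mean over all of them by -0.34, short of the rule. All are of types that can cross-react. ABCA1, the cholesterol exporter, was 1.65 higher as deposited and 0.025 with vehicle doubled, so its size depends on how the vehicle column is read. No fatty acid synthesis gene of 11 passed the rule in both settings. The window before HMGCS1 is shown as the promoter of the mevalonate gene that passed, with capitals as above.

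HMGCS1, chr5:43313413-43313662, minus strand: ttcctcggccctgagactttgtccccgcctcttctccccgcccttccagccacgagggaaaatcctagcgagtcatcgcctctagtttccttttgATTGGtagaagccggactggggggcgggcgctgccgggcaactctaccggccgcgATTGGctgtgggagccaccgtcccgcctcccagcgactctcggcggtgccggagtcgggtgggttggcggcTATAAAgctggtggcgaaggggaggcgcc

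This window held 2 CCAAT motifs. CCAAT was found in 16 of 26 cholesterol promoters, against 35.1% over genes above the floor.

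BMP and TGF-beta genes were mostly above vehicle. Ligands of this family bind paired serine kinase receptors that phosphorylate SMAD proteins, and SMADs with SMAD4 switch target genes, including their own inhibitors. Of 35 genes above the floor, 6 were higher in both settings (17.1%, against 4.05% of all genes) and none was lower. The median was 0.38 as deposited and 0.39 with vehicle doubled, and it was positive under all 8 alternatives, with the value 0.18 when cross-reacting probe set types were left out.

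BMP2, described above, led the ligands and antagonists, and BAMBI, a decoy receptor, was at 0.21 on vehicle, 1.09 on estradiol and 1.06 on tamoxifen. GDF15 and INHBA passed as deposited (1.23 and 0.64) and fell short with vehicle doubled (0.49 and 0.46). Of the receptors and SMADs, TGFBR1, the type I TGF-beta receptor, was higher by 0.79, but by 0.095 without cross-reacting probe set types. ACVR1, a type I BMP receptor, was higher by 0.64. TGFBR2 gave 0.80 and then 0.41, and the inhibitory SMAD7 0.71 and then 0.16. Of the targets, LTBP1, which binds latent TGF-beta, was higher by 0.83 and SNAI2, a repressor of epithelial genes, by 1.42, or by 0.59 with vehicle doubled. The BMP targets ID1 and ID3 had no settled direction: ID1 was at -0.90 on vehicle, -1.79 on estradiol and -1.32 on tamoxifen, which gives -0.42 as deposited and 0.48 with vehicle doubled. For ID3 the values were -0.22 and 0.63.

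Genes of cAMP signalling also lay mostly above vehicle. Cyclic AMP activates protein kinase A, which phosphorylates CREB at promoters with cAMP response elements, and induced phosphodiesterases then break cAMP down. Of 25 genes above the floor, 5 were higher in both settings (20%, against 4.05% of all genes) and none was lower. The median was 0.26 as deposited and 0.41 with vehicle doubled.

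Of receptors and regulators, the prostaglandin E2 receptor gene PTGER4 was at -0.22 on vehicle, 0.093 on estradiol and 0.56 on tamoxifen. PRKACB, a catalytic subunit of protein kinase A, was at 0.21, 0.85 and 1.26. For both, tamoxifen was the highest array. Of targets and feedback genes, NR4A2 is described above, and the phosphodiesterase gene PDE10A was higher by 1.21. FOS, a subunit of the AP-1 factor, was at 0.082 on vehicle, 1.08 on estradiol and 0.90 on tamoxifen, so the estradiol value was the higher of the ligand arrays. CREM, an inducible CREB-family repressor gene, differed by 0.58 over 4 probe sets, NR4A1 by 0.23 and SIK1 by 0.49, and none of the 3 passed in both settings.

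The FOS window is shown because its promoter is a textbook CREB target, with capitals marking TGACG, the core of the response element, and TATAAA on either strand.

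FOS, chr14:75278578-75278827, plus strand: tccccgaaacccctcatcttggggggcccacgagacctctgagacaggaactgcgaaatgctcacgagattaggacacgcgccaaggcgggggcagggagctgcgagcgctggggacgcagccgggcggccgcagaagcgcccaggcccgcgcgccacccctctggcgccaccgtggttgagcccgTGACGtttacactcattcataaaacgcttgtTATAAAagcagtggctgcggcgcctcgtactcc

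TGACG was present in 9 of 22 promoters of the cAMP list and in 2 of the 4 higher members with a promoter in the table. Of the 9850 genes above the floor with a promoter 2956 held it, as did 30.5% of the higher genes and 26.2% of the lower ones. The full response element TGACGTCA was present in 2.48% of higher, 4.29% of lower and 2.95% of all genes above the floor, the E-box CACGTG in 7.44%, 6.67% and 8.97%, and the serum response element in 0.993%, 3.33% and 1.12%.

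**Figure D4:**
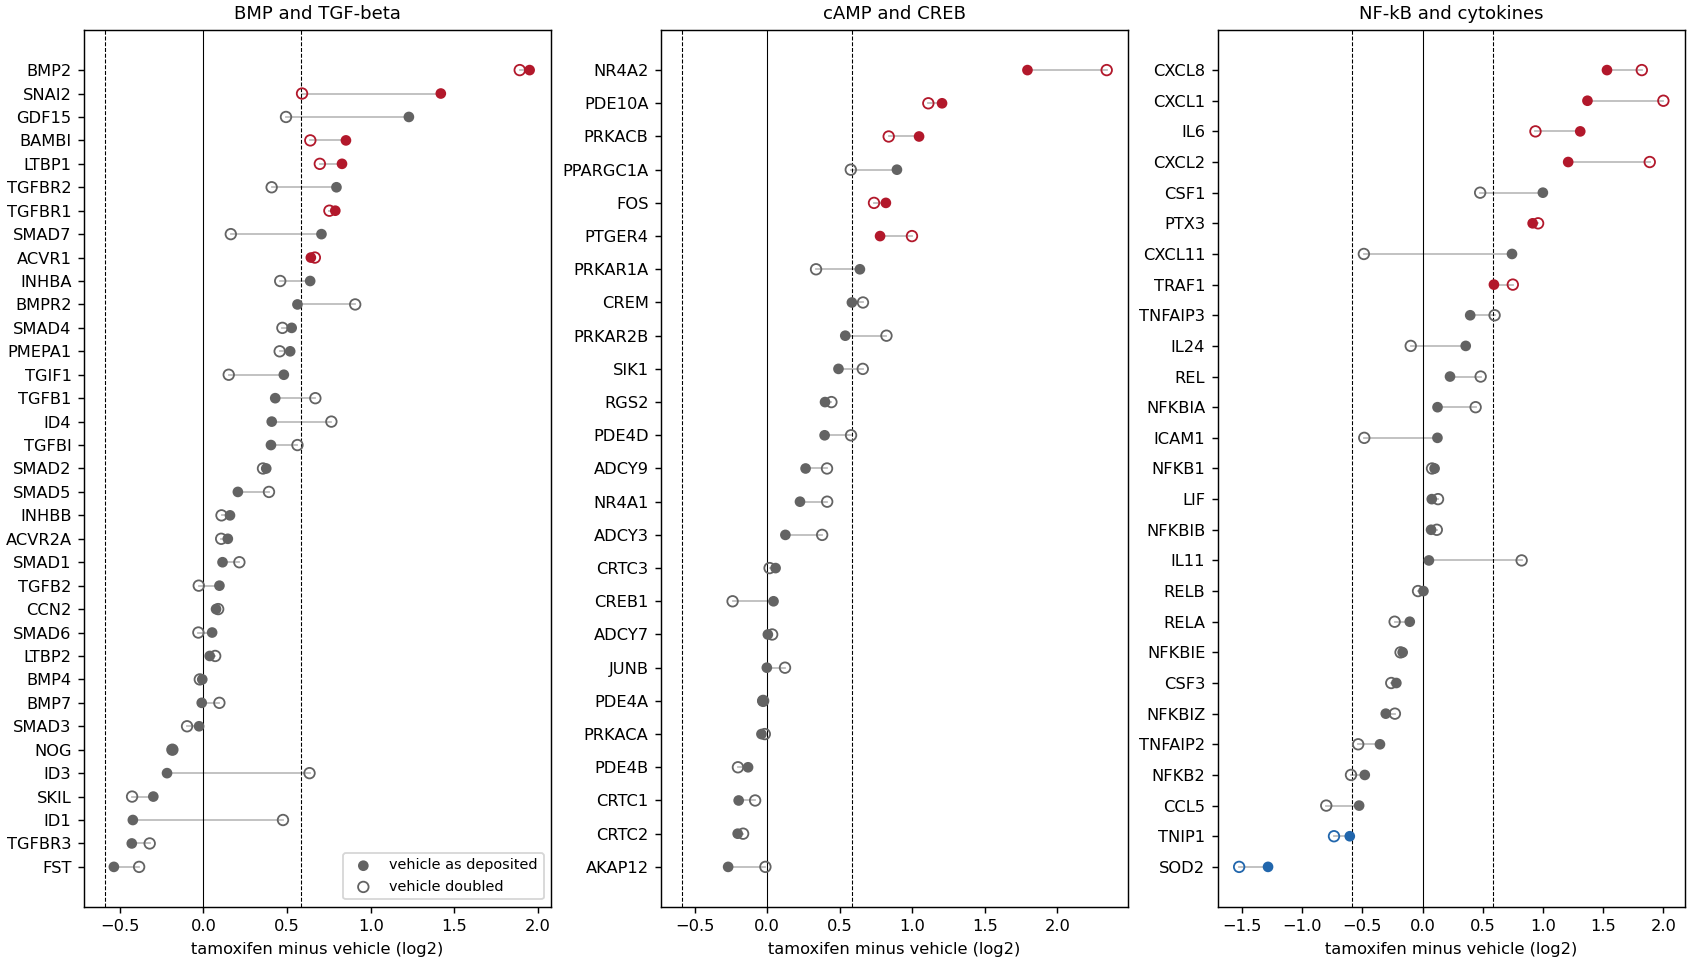
Tamoxifen minus vehicle (log2) for the members above the floor of 3 lists, with filled circles for vehicle as deposited, open circles for vehicle doubled, red for genes higher and blue for genes lower in both settings, and dashed lines at 1.5-fold. BMP2, NR4A2 and the chemokines lie furthest right, and for ID1 and ID3 the circles lie on opposite sides of 0.

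ERK, the last kinase of the Ras pathway, induces its own phosphatases and Sprouty proteins. Of 22 feedback genes, DUSP10 (1.04, both probe sets), SPRY2 (1.11) and SPRED1 (0.65) were higher in both settings (13.6%, against 4.05% of all genes). DUSP1, a phosphatase, was lower (-0.59), which is 4.55% of the list against 2.29% of all genes. It was also the only one of 14 glucocorticoid response genes to pass in both settings. Other DUSP1 probe sets, below the floor, differed by 0.13 and 0.16, and the mean over all of them by -0.099. All are of types that can cross-react. DUSP6, the ERK-selective phosphatase, was at 0.71 as deposited and 0.48 with vehicle doubled. Of 10 EGFR family genes EREG passed (10%, against 4.05% of all genes), and TGFA, another ligand, went from 1.06 to 0.020 when vehicle was doubled. Immediate early genes were largely within the rule: of 23, FOS and the TGF-beta inducible KLF10 (0.94) were higher (8.70%, against 4.05% of all genes). EGR1 differed by 0.036, JUN by 0.00074 and IER2 by 0.027.

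In the Wnt and Notch list, 4 of 17 genes were higher in both settings (23.5%, against 4.05% of all genes) and none was lower. JAG1, a Notch ligand, was at 0.43 on vehicle, 1.22 on estradiol and 1.46 on tamoxifen. HES1, the Notch target repressor, was at 0.14, 1.02 and 1.19, with both of its probe sets above the floor higher and another, below the floor, with a difference of -0.26. FZD7, a Wnt receptor, differed by 0.62 and ZNRF3, a ligase that removes Wnt receptors, by 0.92. Neither FZD7 probe set alone passed in both settings, though their mean did. Above the floor, JAG1, HES1 and FZD7 were read only by probe set types that can cross-react. The list median was 0.096, and 0.012 without those types. NOTCH1, NOTCH2 and the cofactor gene RBPJ differed by 0.16, 0.096 and 0.025. Among YAP and SRF targets, which respond to tension and to free actin, 3 of 17 were lower (17.6%, against 2.29% of all genes) and none was higher. They were the smooth muscle gene TAGLN (-1.35), ANKRD1 (-0.75) and the myosin light chain gene MYL9 (-0.69). TAGLN was at -0.76 with vehicle doubled and at -0.24 without cross-reacting probe set types. CCN1 and CCN2 differed by -0.10 and 0.076.

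Inflammatory genes are given by role, and the roles were not tested against each other. NF-kB is held in the cytoplasm by inhibitors that it induces itself, together with chemokines and cytokines. Of 11 subunit and inhibitor genes above the floor none was higher in both settings, with 0.10 for NFKB1, 0.12 for NFKBIA and 0.40 for TNFAIP3. TNIP1 was lower (-0.61), but its gene-specific probe set differed by 0.032. Of 11 chemokine and cytokine genes, 4 were higher (36.4%, against 4.05% of all genes). The neutrophil attractant CXCL8 was at -0.29 on vehicle, 1.94 on estradiol and 1.24 on tamoxifen. CXCL1 was at -0.63, 1.10 and 0.74, and CXCL2 at -0.68, 1.19 and 0.53. IL6 was at 0.37, 2.49 and 1.68. For each of these 4 genes vehicle was the lowest array and estradiol the highest, with tamoxifen between. Above the floor, CXCL8 and CXCL2 were read only by probe set types that can cross-react. With all its probe sets averaged, dim ones included, CXCL2 differed by 0.29. Of 5 adhesion and survival genes, the long pentraxin gene PTX3 (0.91) and the adaptor gene TRAF1 (0.59) were higher (40%) and SOD2 was lower (20%). The shares over all genes were 4.05% and 2.29%. CSF1 and CXCL11 passed only as deposited, and CXCL11 changed from 0.74 to -0.49. PTGS2, the inducible cyclooxygenase, was at 0.77 on vehicle, 2.76 on estradiol and 2.39 on tamoxifen, a difference of 1.62 that was 0.85 with vehicle doubled. A second PTGS2 probe set, below the floor, differed by 0.012 as deposited and -0.88 with vehicle doubled. The mean over both differed by 0.82 as deposited. PTGS2 and PTGER4 were the 2 of 13 prostaglandin genes that were higher (15.4%, against 4.05% of all genes).

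The MHC class II list showed how much the vehicle column matters. These genes present peptides to CD4 T cells under the control of CIITA and the RFX factors. As deposited, 8 of 13 genes were higher and the median was 0.67. With vehicle doubled the median was only 0.10, and 2 genes passed in both settings (15.4%, against 4.05% of all genes). HLA-DRA went from 1.90 to -0.14 and HLA-DPA1 from 2.05 to 0.14. CIITA (0.85 and 0.93) and RFXAP (0.68 and 0.63) hardly moved, as their vehicle values were near 0. Similar dependence held for the largest deposited difference of any gene, CDH11, a mesenchymal cadherin, with 3.63 as deposited and 0.42 with vehicle doubled, and for KISS1, a metastasis suppressor peptide, with -1.76 and -0.20. Of 33 interferon genes, IRF1 was higher (0.81, both probe sets) and ISG15 lower (-0.59), 3.03% each, against 4.05% and 2.29% of all genes. The list median changed sign from 0.13 to -0.17.

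Among stress and metabolic genes, those of ATF4, which adapts cells to amino acid shortage, went both ways. Of 23 ATF4 genes, 4 were higher in both settings (17.4%, against 4.05% of all genes) and 1 was lower, with a median of -0.076. None of the 16 unfolded protein response genes passed in both settings, and their median was 0.19. The serine synthesis genes PHGDH (0.0042 on vehicle, 1.01 on tamoxifen) and PSAT1 (0.069 and 0.85) were higher, as were DDIT4 (0.84), which restrains mTORC1, and STC2 (0.64). With all its probe sets averaged, dim ones included, STC2 differed by 0.32. PPP1R15A, which dephosphorylates eIF2 alpha, was lower (-0.71), and ATF4 itself (-0.35), DDIT3 (-0.38) and the chaperone gene HSPA5 (0.14) were within the rule. Of 39 hypoxia and glycolysis genes, the collagen prolyl hydroxylase genes P4HA1 (1.20) and P4HA2 (0.69) and DDIT4 were higher (7.69%, against 4.05% of all genes). PKM, pyruvate kinase, was lower (-1.09), which is 2.56% of the list against 2.29% of all genes. Single members passed upward elsewhere, at shares of 5% of 20 NRF2 genes (GCLC, for glutathione synthesis, 0.89), 7.69% of 13 heat shock genes (HSPH1, 0.59) and 2.70% of 37 respiratory chain genes (SDHD, 0.61), beside 4.05% of all genes. Without cross-reacting probe set types GCLC differed by 0.32 and HSPH1 by 0.24, and a further HSPH1 probe set above the floor differed by -0.57. The insulin receptor gene INSR (0.91) joined ARRDC3 among 20 FOXO and arrestin-domain genes (10%, against 4.05% of all genes). Other INSR probe sets above the floor differed by -0.30, 0.47 and 0.40, and the mean over all INSR probe sets by 0.36, short of the rule. PLPP3, a lipid phosphatase (0.82, and 2.03 without cross-reacting types), was the only one of 22 sphingolipid and phospholipid genes (4.55%).

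Of 15 clock genes 10 lay above vehicle, with a median of 0.25, and of 9 genes of the aryl hydrocarbon receptor pathway 7 did, with a median of 0.36. BMAL1, the activator of the clock loop, was at -0.19 on vehicle, 0.35 on estradiol and 0.79 on tamoxifen. Its repressors PER2 (0.61) and BHLHE41 (1.10) were higher too, so 3 of the 15 clock genes (20%, against 4.05% of all genes) passed in both settings. With all probe sets averaged, dim ones included, BMAL1 differed by 0.47, PER2 by 0.26 and BHLHE41 by 0.38, each short of the rule. The clock list median was 0.039 in the brightest band alone. AHR, the aryl hydrocarbon receptor, was at 0.12, 0.74 and 1.22. Its target CYP1B1, which hydroxylates estradiol, was at 1.21, 2.91 and 3.16, a difference of 1.95 that fell to 0.74 with vehicle doubled. AHR and CYP1B1 were the 2 of the 9 pathway genes that were higher (22.2%). The target CYP1A1 differed by 0.36 and then -0.011.

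Among tamoxifen metabolising enzymes, FMO1, which oxidises the amine side chain, was higher (0.63), and the main activating enzymes CYP2D6 and CYP3A4 differed by 0.055 and 0.15. No gene of the 15 PKC and calmodulin genes passed in both settings.

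Estrogen receptor genes gave little signal in this line. Of 9 ESR1 probe sets, 1 lay above the floor. It read -0.061 on vehicle, -0.020 on estradiol and -0.77 on tamoxifen, which counts ESR1 as lower, but the mean over all 9 probe sets differed by 0.033. None of the 6 ESR2 and 2 PGR probe sets was above the floor. GPER1, the membrane estrogen receptor, differed by -0.052. Of 17 genes known to be induced by estrogen in breast cells, TFAP2C (1.18), STC2 and the insulin receptor substrate gene IRS1 (0.64) were higher in both settings. That is 17.6% of the list, against 4.05% of all genes. With all probe sets averaged, dim ones included, TFAP2C differed by 0.54 and STC2 by 0.32, short of the rule. For IRS1 the vehicle, estradiol and tamoxifen values were -0.0077, 0.049 and 0.63 on its brightest probe set. Of its 2 dimmer probe sets above the floor, 1 differed by 0.71 and the other by -0.69, and the mean over all of them was 0.22. The classical targets CCND1, MYC and XBP1 differed by -0.36, 0.31 and -0.028. Among 20 receptor cofactors, the coactivator gene NCOA1 was higher (0.65) and PELP1 lower (-0.63), 5% each, against 4.05% and 2.29% of all genes.

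Adhesion and matrix genes were heterogeneous. Of 16 EMT and cadherin genes, SNAI2 was higher and the tight junction gene CLDN1 lower (-0.78), 6.25% each, against 4.05% and 2.29% of all genes. Of 18 collagen genes, COL6A3 (1.58) and COL4A5 (2.07, or 0.73 with vehicle doubled) were higher (11.1%) and COL9A2 was lower (-1.07, 5.56%). ITGB8 was the only one of 18 integrin and laminin genes (5.56%). No member of the matrix protease, autophagy and lysosome, metallothionein, or p53 and apoptosis lists passed in both settings. Of the reference genes, HPRT1 was higher (0.78), GAPDH differed by -0.17 and ACTB by -0.34. The ACTB mean includes its 5′ control probe set, which differed by -1.08, while its other 5 probe sets differed by -0.36 to -0.11.

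**Figure D5:**
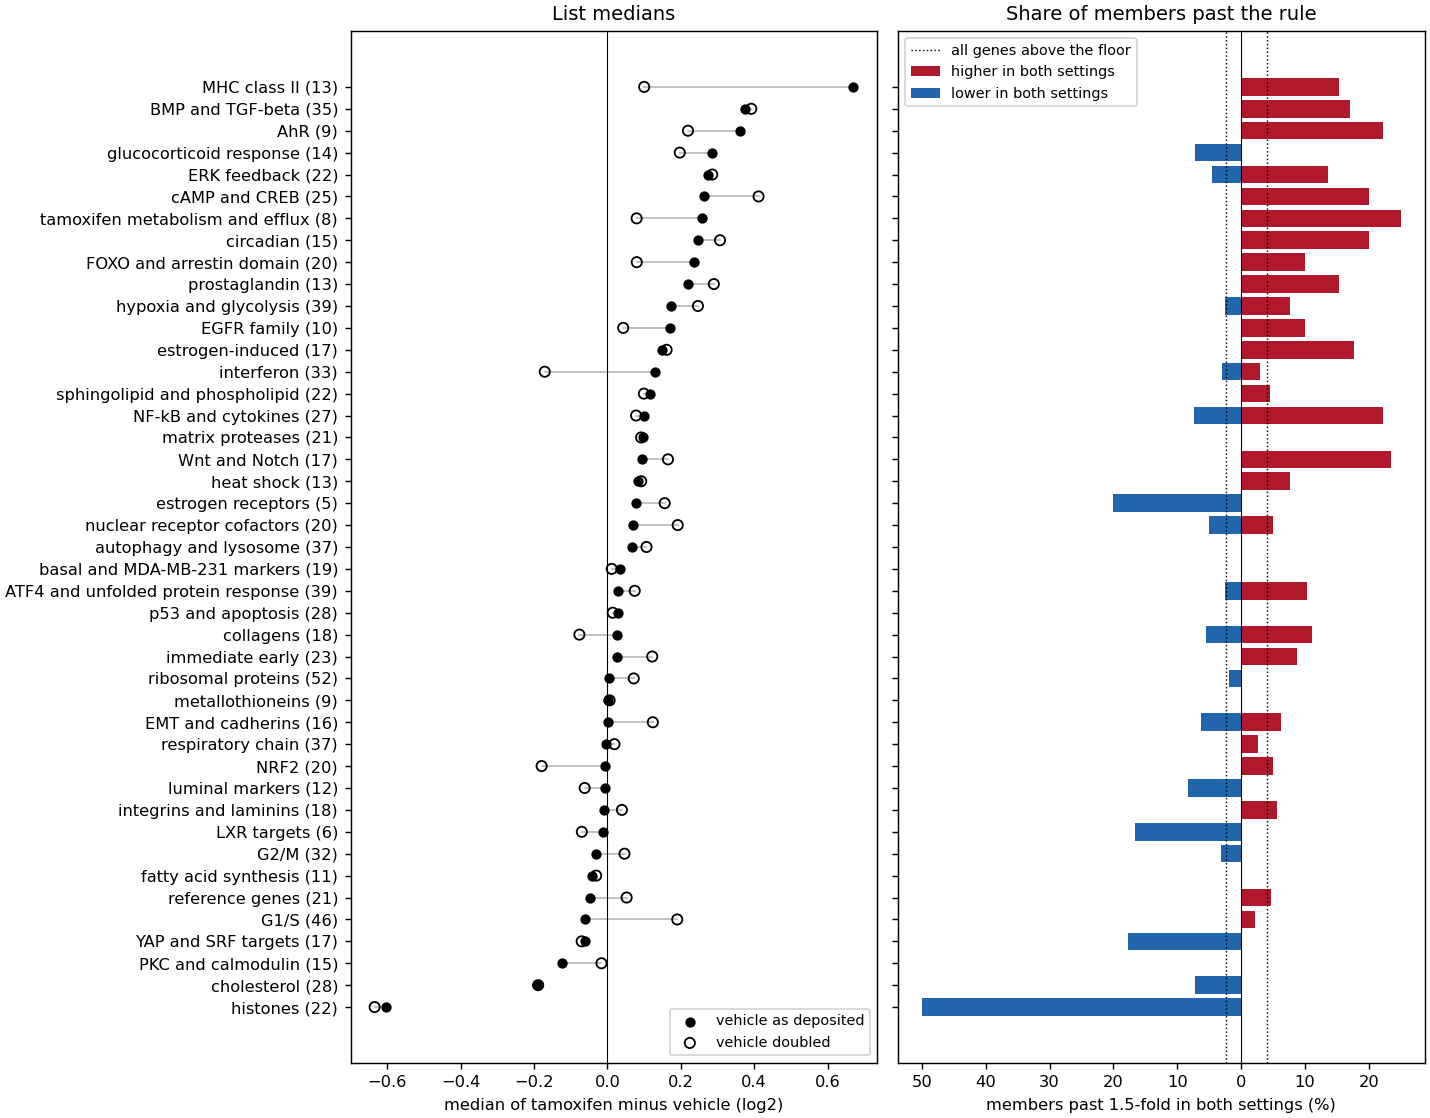
For each of 43 lists, with the number of genes above the floor in brackets, the left panel plots the median tamoxifen minus vehicle (log2) with vehicle as deposited (filled) and doubled (open), and the right panel the percentage of members higher (red) or lower (blue) in both settings. Dotted lines mark 4.05% and 2.29%, the shares over all genes; histones stand at the bottom with a median of -0.60, and MHC class II has the widest gap between settings.

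Some genes that passed were neighbours in the RefSeq gene order, counted among genes above the floor. The runs expected among as many genes picked without regard to their values were not computed, so no excess is claimed. Of the 489 higher genes, 75 lay in 36 runs of 2 or 3 adjacent genes, among them CXCL8, CXCL1 and CXCL2, and WARS2-AS1, ZNF697 and PHGDH. The probe sets that read CXCL8 and CXCL2 above the floor are of types that can cross-react. Of the 276 lower genes, 22 lay in 11 adjacent pairs, which include the histone pairs H2BC4 and H2AC6, H2BC5 and H2BC6, and H2BC9 and H4C8. Another pair was THUMPD3 and its antisense transcript THUMPD3-AS1, for which cross-reading between strands was not checked.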

How the data were processed

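RNA from 1 culture sample each of vehicle, estradiol and tamoxifen treated cells was measured on arrays. The authors deposited log2 values per probe set, normalised with RMA per the submitters' processing notes, with no version given. A baseline, unnamed in the labels, had been subtracted from each probe set before deposit. The number of arrays limits the precision. Gene symbols came from the platform annotation: 41097 probe sets had 1 symbol, 1801 had several and 11777 had none. Of the former, 41043 matched RefSeq by gene ID and no symbol needed updating.

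A brightness band was read from the binary step of each stored value, which can place a probe set in too bright a band. A gene's value was the mean over its single-symbol probe sets in its brightest band. Differences were taken in Python 3.11.15 with pandas 2.3.3, and the reading of bands was tested on simulated data. The simulated vehicle values were divided by 2 as well, so that check cannot show whether the deposited ones were. No test was possible with 1 array a group. The genes named were the 20 furthest above and below vehicle by the smaller of the 2 differences, list members past 1.5-fold in both settings (at most 12 a list), and ESR1, ESR2, GPER1, PGR, GAPDH, ACTB, EBP, DHCR7 and TMEM97. Another gene of this rule is not reported here. Other list members were named after their values were seen. The members and the 46 gene lists were chosen with earlier results of these data known. Alternatives changed the vehicle scaling, the floor, the averaging, the probe set types, the centring and the fold. Motifs were counted in the 250 bases before the first start listed for a gene in RefSeq (GRCh38.p14).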

Additional observations from a re-analysis of the deposited data

Results flagged for a closer look

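Probe sets without a single gene symbol lie outside the comparison of genes. Of 3829 such probe sets above the floor, 340 (8.88%) were lower with tamoxifen in both settings and 124 (3.24%) were higher. Among 20816 probe sets with 1 symbol above the floor, 715 (3.43%) were lower and 978 (4.70%) were higher. The median difference was -0.064 without a single symbol and 0.018 with 1 symbol. What these probe sets read was not analysed here, and the difference between the classes was not tested.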

How the results depend on the processing

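With the brightest band alone, 4984 genes were left and the counts as deposited were 328 higher and 183 lower, or 166 and 99 in both settings. At 2-fold they were 149 and 57 as deposited, and 58 and 34 in both settings. Averaging all single-symbol probe sets gave 549 higher genes as deposited and 292 in both settings, while the lower counts stayed within 1.5 times. No floor, no cross-reacting probe set types, and centring within bands or on reference genes each left the 4 counts within 1.5 times. Doubling vehicle or scaling it to the SD of tamoxifen left the 2 deposited counts within 1.5 times and was not run for the counts in both settings, which already include a scaling. ESR1 turned to 0.033 with all probe sets averaged, and TNIP1 to 0.032 without cross-reacting types. Of 43 list medians, 20 kept their sign under every alternative that could be computed for them. The cause of these shifts was not tested. No paired analysis was possible because each group has 1 array. Without replicates, the spread between cultures is unknown for every value, and dim probe sets were the least repeatable within a gene.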
